A study of Mus musculus with 12 samples.

Results

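CC chemokines are small secreted proteins that draw white blood cells out of the circulation and into tissue. They were followed here in cerebral vessels of mice given lipopolysaccharide (LPS), the bacterial cell wall product used to mimic systemic bacterial inflammation. The 10 genes Ccl2, Ccl3, Ccl4, Ccl5, Ccl7, Ccl8, Ccl11, Ccl12, Ccl19 and Ccl20 were chosen by name, with earlier results of these data known. Each symbol matched 1 mouse gene among the 54119 genes covered. The vessels were separated from the forebrain of wild type C57BL6 mice aged 2 to 3 months, after removal of the meninges and perfusion of the heart with ice-cold PBS. Mice received LPS intraperitoneally at 10 mg/kg and were examined after 15 min, 30 min or 4 h, or received PBS. How long after injection the PBS mice were examined is not given in the sources used here. Each of the 4 groups held 3 libraries, and each library pooled 1 male and 1 female mouse. The vessel preparation holds all cells attached to the vessels, so more cells of a type and more RNA per cell cannot be told apart.

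A chemokine acts by binding a receptor of the G protein-coupled family on a leukocyte, and each receptor is carried by particular leukocytes. Ccl2, Ccl7 and Ccl12 act through Ccr2, the receptor that inflammatory monocytes use to leave the blood. Ccl3 and Ccl5 bind Ccr1. Ccl11 is an eosinophil attractant that acts through Ccr3, mouse Ccl8 acts through Ccr8, Ccl20 binds Ccr6, and Ccl19 binds Ccr7, the lymph node homing receptor of dendritic cells and naive T cells. In blood vessels, endothelial cells display chemokines on the luminal surface, where rolling leukocytes meet them.

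Libraries held 18.3 to 25.9 M fragments. Levels of 1 gene are given as counts per M fragments (CPM), scaled between libraries by the TMM method, which sets the bulk of genes to no change. Levels of different genes are compared as TPM (transcripts scaled to a constant sum per library), which take account of transcript length. A gene was called when edgeR placed its change beyond 0.58 on the log2 scale (about 1.5-fold) with p-values adjusted by Benjamini and Hochberg's method over the 19150 genes tested and a threshold of 0.05, and all 10 chemokines were among them. The median log2 change of all genes lay between -0.04 and 0.00 in the 5 comparisons made.

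Among the 10 genes, the transcripts in PBS vessels were mostly those of Ccl19. Outside the 10, the CC chemokine Ccl27a stood higher in PBS, at 173 ± 12.6 TPM. Ccl19 stood at 76.0 ± 2.15 TPM (SD, n = 3) and made up 80.5% of the summed TPM of the 10 genes (77.3% to 84.7% across the libraries). Ccl8 came next at 5.64 ± 1.58 TPM and Ccl20 last at 0.42 ± 0.04 TPM, which rested on 4 counts in each library. Between Ccl8 and Ccl20, no gene was separated from the next in the order by more than the spread of the libraries. The 9 genes other than Ccl19 rested on 12 to 74 counts per gene over the 3 libraries, which limits the precision of any fold against PBS.

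The sum over the 10 genes overlapped between PBS and LPS 15 min and was higher at 30 min and 4 h. It was 97.1, 86.8 and 99.9 TPM in the PBS libraries, 104, 91.7 and 94.4 TPM at LPS 15 min, 218, 209 and 219 TPM at LPS 30 min, and 2521, 2461 and 2494 TPM at LPS 4 h. The PBS and LPS 15 min libraries overlapped, and the groups at 30 min and 4 h each lay above all earlier libraries. No test was made on the sum.

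**Figure D1:**
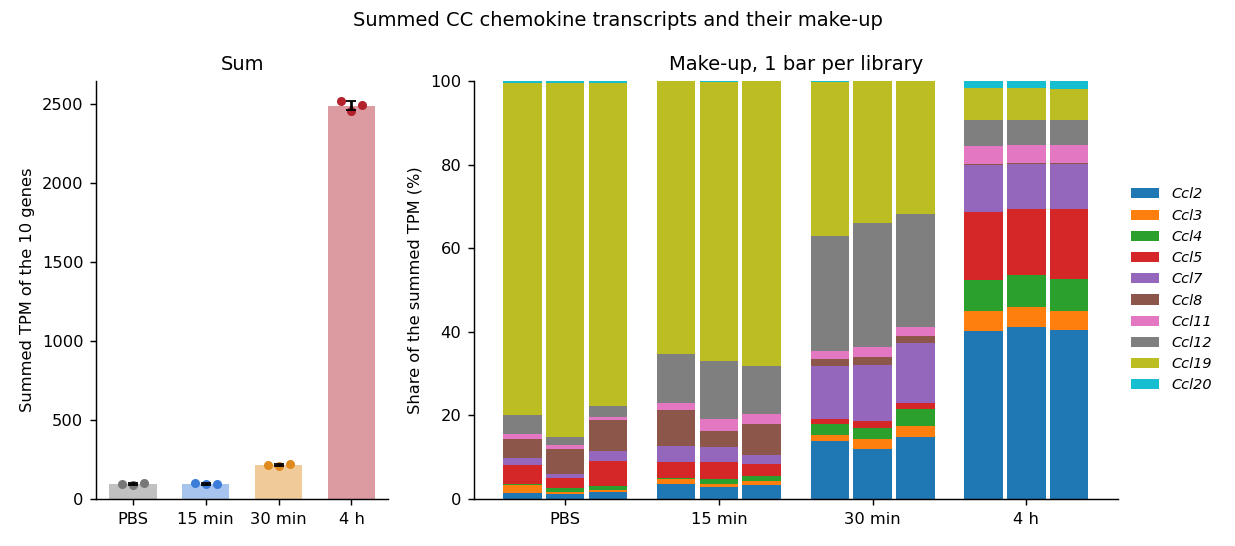
Left, summed TPM of the 10 CC chemokines, with bars for the mean of 3 libraries, points for libraries and error bars for the SD. Right, the share of each gene in that sum, 1 bar per library. Ccl19 filled 80.5% of the sum in PBS and 7.62% at LPS 4 h, where Ccl2 filled 40.6%.

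The make-up of the sum changed in the same interval. Ccl19 fell from 80.5% of it in PBS to 66.7% after 15 min, 34.3% after 30 min and 7.62% after 4 h, although its own level did not drop below 64.4 TPM in any group mean. Ccl12 held the second place at both early times, with 12.4% of the sum at 15 min and 28.05% at 30 min. At 4 h Ccl2 led with 1011 ± 4.04 TPM and was at rank 82 among all genes by mean TPM. Ccl5 followed at 405 ± 16.8 TPM and Ccl7 at 274 ± 11 TPM. Ccl19 and Ccl4 overlapped in the next places at 189.9 ± 3.02 and 188 ± 0.14 TPM, and Ccl8 came last at 4.16 ± 0.97 TPM. Every other neighbouring pair in the order at 4 h had libraries that did not overlap.

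LPS 15 min was compared with PBS to find how early chemokine transcripts respond. Ccl2, Ccl11 and Ccl12 rose, and none of the 10 fell. These 3 of 10 stand beside 4.25% of all genes tested that were called at this time (3.35% as higher). Because the genes were chosen with earlier results known, this contrast and the later ones are descriptions, not tests. The same holds for the lists of receptors and other ligands. The median log2 change of the 10 was 0.29. At an unadjusted p below 0.05 in the same test, Ccl7 would be added as higher and Ccl20 as lower. Of the 3 calls, that of Ccl12 held in every alternative run. Those of Ccl2 and Ccl11 ended with DESeq2 at the same fold limit (adjusted p = 0.135 and 0.200), in a fit on the 2 groups alone (0.149 and 0.131), with limma on the deposited values plus 1 (0.119 and 0.0668), and with limma after adding 10 (1 for both). Ccl2 also lost its call without PBS library 2 (1.14 on the log2 scale, adjusted p = 0.166) and without LPS 15 min library 1 (1.17, adjusted p = 0.140). Ccl11 lost it without PBS library 3 (1.2, adjusted p = 0.0826) and without LPS 15 min library 2 (1.21, adjusted p = 0.0797).

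At LPS 30 min against PBS, 6 of the 10 rose, Ccl2, Ccl3, Ccl4, Ccl7, Ccl11 and Ccl12, and none fell, also at an unadjusted p below 0.05. All 6 lie on chromosome 11. The share of all genes called was 4.62% (3.8% as higher), and the median log2 change of the 10 was 2.57. The same 6 genes were also higher at LPS 30 min than at LPS 15 min, a comparison in which 4.76% of all genes were called, 2.77% as higher.

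At LPS 4 h against PBS, 9 of the 10 rose, all but Ccl8, with a median log2 change of 7.69 over the 10. The share of all genes called was 33% (19.1% as higher). Of the 19150 genes, 18 had a larger log2 change than Ccl2, and 36 had a larger one than Ccl4. The 9 genes were also higher at LPS 4 h than at LPS 30 min, where 28.9% of all genes were called, 17% as higher. Of the 9, Ccl20 passed the filter on low counts only through its LPS 4 h libraries, so its part in these counts carries no weight. The comparisons with PBS share the PBS libraries and are not independent of each other.

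**Figure D2:**
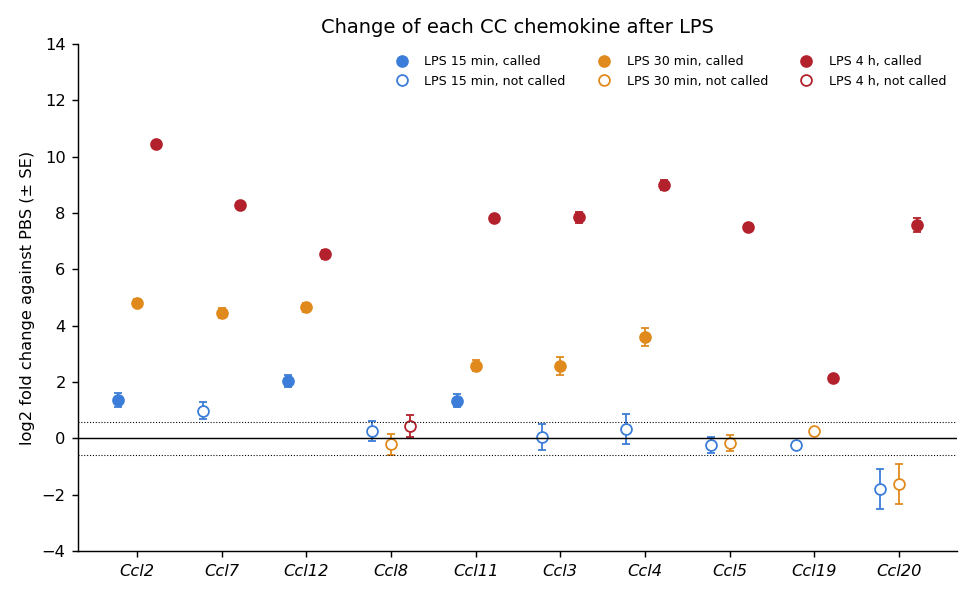
Fitted log2 fold change of each CC chemokine against PBS, with its standard error, at LPS 15 min, LPS 30 min and LPS 4 h. Filled points were called, open points were not, and dotted lines mark the fold limit of 0.58. Ccl2 reached 10.46 at 4 h, and Ccl8 lay between -0.22 and 0.43 at the 3 times.

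The monocyte attractants Ccl2, Ccl7 and Ccl12 had the largest log2 changes of the 10 at LPS 30 min against PBS. Ccl2 stood at 0.561, 0.337 and 0.572 CPM in the PBS libraries, 1.52, 0.976 and 1.21 CPM at LPS 15 min, 14.03, 11.96 and 15.2 CPM at LPS 30 min, and 685, 695 and 685 CPM at LPS 4 h. Each group lay above the one before it without overlap. The log2 change against PBS was 1.36 ± 0.26 (SE, adjusted p = 0.02004) at 15 min, 4.81 ± 0.15 (adjusted p = 9.53e-17) at 30 min and 10.46 ± 0.08 (adjusted p = 1.28e-29) at 4 h. From 30 min to 4 h Ccl2 gained a further 5.65 ± 0.05 on the log2 scale, so that its level at 30 min was 1.99% of its level at 4 h. The PBS value behind these folds rested on 40 counts over 3 libraries, against 29379 counts at 4 h.

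Ccl12 followed another course, rising sooner and gaining less later. It stood at 0.786, 0.303 and 0.458 CPM in PBS, 2.13, 2.25 and 1.92 CPM at LPS 15 min, 12.6, 13.3 and 12.6 CPM at LPS 30 min, and 49.8, 46.1 and 47.0 CPM at LPS 4 h. Again no libraries of successive groups overlapped. The change at 15 min was 2.03 ± 0.22 on the log2 scale (adjusted p = 1.06e-05), and 113 of the 19150 genes had a larger one. At 30 min it was 4.64 ± 0.17 and at 4 h 6.53 ± 0.16. The step from 30 min to 4 h was 1.89 ± 0.11 (adjusted p = 2.14e-11), and Ccl12 had already reached 27.0% of its 4 h level at 30 min. Per transcript length, Ccl12 was above Ccl2 at 30 min (60.3 ± 1.5 against 29.1 ± 3.82 TPM) and below it at 4 h (149 ± 5.21 against 1011 ± 4.04 TPM), with no overlap of libraries at either time.

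Ccl7 was not called at 15 min. Its libraries held 0.599, 0.270 and 0.839 CPM in PBS and 1.42, 1.15 and 0.717 CPM at LPS 15 min, which overlap (log2 change 0.98 ± 0.30, adjusted p = 0.414). At LPS 30 min it stood at 11.7, 12.04 and 13.5 CPM and at LPS 4 h at 181, 171 and 170.3 CPM, each apart from the group before. The changes against PBS were 4.46 ± 0.18 (adjusted p = 2.08e-14) and 8.27 ± 0.13 (adjusted p = 4.28e-24). Its 30 min level was 7.11% of its 4 h level, between those of Ccl2 and Ccl12.

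Ccl8 did not pass the test in any of the 5 comparisons. It stood at 0.711, 0.843 and 1.14 CPM in PBS, 1.46, 0.594 and 1.13 CPM at LPS 15 min, 0.780, 0.774 and 0.759 CPM at LPS 30 min, and 0.924, 1.46 and 1.23 CPM at LPS 4 h. The groups overlapped in each comparison with PBS. The log2 change at 4 h was 0.43 ± 0.39 (adjusted p = 0.800), on 74 counts in PBS and 52 at 4 h. With library size alone as the scale it was -0.27 (adjusted p = 0.818), so its sign depends on the scaling.

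Ccl11, the eosinophil attractant, rose in small steps at first. It stood at 0.599, 0.472 and 0.381 CPM in PBS, 1.05, 1.49 and 1.21 CPM at LPS 15 min, 2.69, 3.23 and 2.81 CPM at LPS 30 min, and 111, 108 and 111 CPM at LPS 4 h. No successive groups overlapped. The log2 change against PBS was 1.34 ± 0.22 (adjusted p = 0.0103) at 15 min, 2.57 ± 0.19 (adjusted p = 7.47e-09) at 30 min and 7.81 ± 0.11 (adjusted p = 1.06e-24) at 4 h. Its step from 15 to 30 min (1.24 ± 0.16, adjusted p = 0.00135) lost its call with limma on the deposited values plus 1 or plus 10 (adjusted p = 0.0904 and 0.224).

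**Figure D3:**
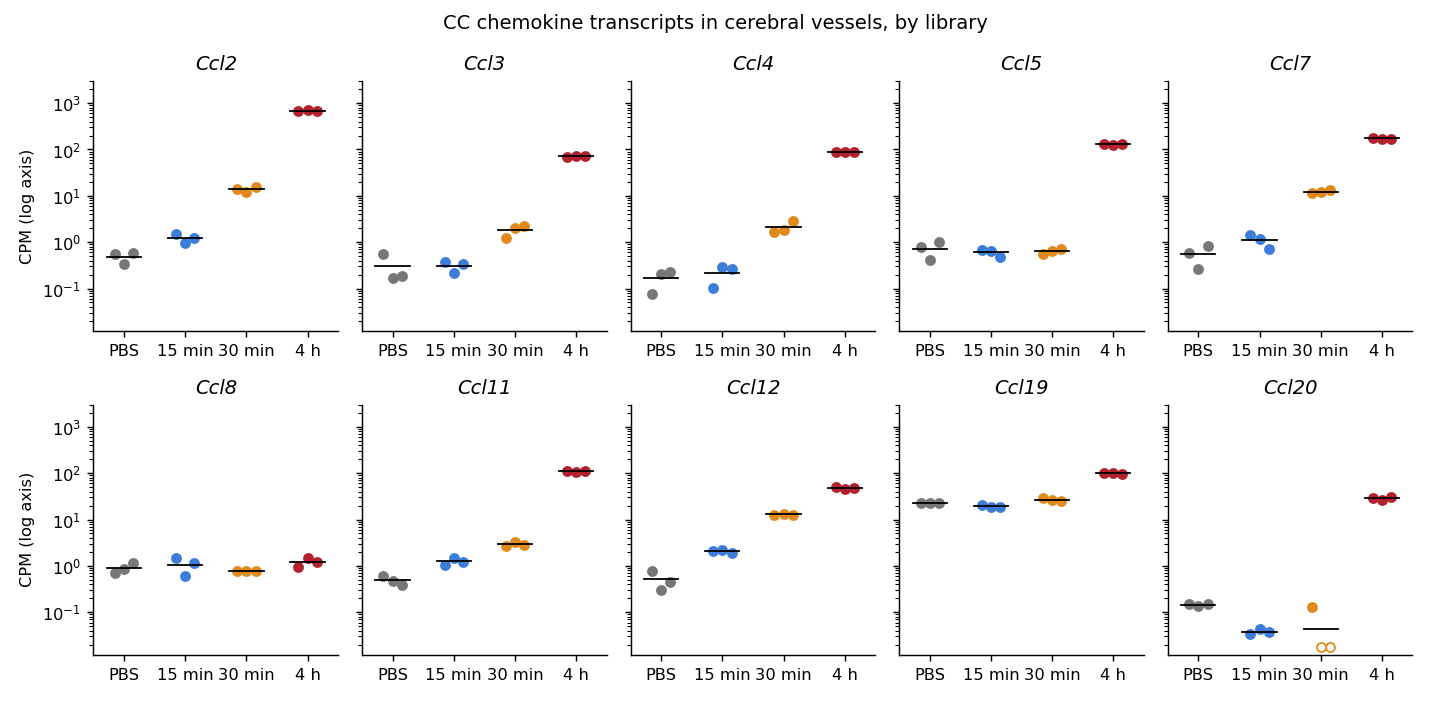
CPM of each CC chemokine in each of the 12 libraries on a log axis, with the group mean as a line. The 2 libraries of LPS 30 min with no Ccl20 count are drawn as open points at the bottom. Ccl2 spans 0.337 to 695 CPM, and the Ccl8 libraries of all groups lie between 0.594 and 1.46 CPM.

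Ccl3 and Ccl4, the macrophage inflammatory proteins, were not called at 15 min and rose together afterwards. Ccl3 stood at 0.561, 0.169 and 0.191 CPM in PBS, 0.373, 0.212 and 0.339 CPM at LPS 15 min, 1.21, 1.98 and 2.28 CPM at LPS 30 min, and 69.9, 71.5 and 70.7 CPM at LPS 4 h. Ccl4 stood at 0.0749, 0.202 and 0.229 CPM in PBS, 0.102, 0.297 and 0.264 CPM at LPS 15 min, 1.69, 1.85 and 2.81 CPM at LPS 30 min, and 89.0, 89.0 and 88.9 CPM at LPS 4 h. For both, PBS and LPS 15 min overlapped and the later groups lay apart. At 30 min the log2 change was 2.57 ± 0.31 for Ccl3 (adjusted p = 2.33e-05) and 3.6 ± 0.32 for Ccl4 (adjusted p = 6.15e-08). At 4 h it was 7.84 ± 0.20 and 8.99 ± 0.17. Ccl3 in PBS rested on 25 counts, 15 of them in library 1, and without that library its 4 h change was 8.58.

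Ccl5, the attractant of T cells and monocytes also known as RANTES, was flat for 30 min. It stood at 0.786, 0.405 and 0.992 CPM in PBS, 0.678, 0.637 and 0.490 CPM at LPS 15 min, and 0.563, 0.645 and 0.715 CPM at LPS 30 min, groups that all overlap. At LPS 4 h it stood at 132, 123 and 132 CPM. The log2 change was -0.24 ± 0.28 at 15 min, -0.16 ± 0.29 at 30 min (adjusted p = 1 for both) and 7.48 ± 0.12 at 4 h (adjusted p = 5.40e-24). At 30 min its level was 0.497% of the 4 h level, against 2.38% for Ccl4 and 2.58% for Ccl3.

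Ccl20 was at the limit of detection until 4 h, and passed the filter on low counts only through its LPS 4 h libraries. Its libraries held 4, 4 and 4 counts in PBS, 1, 1 and 1 at LPS 15 min, 3, 0 and 0 at LPS 30 min, and 383, 400 and 445 at LPS 4 h. The ratio of LPS 15 min to PBS was 0.259 with a 95% interval of 0.0470 to 0.961, and that of LPS 30 min to PBS was 0.300 (0.0544 to 1.11). These exact binomial intervals cover counting error only, and edgeR called neither comparison (adjusted p = 0.396 and 0.647). Without LPS 30 min library 1, the only one with a count, the 30 min change was called as lower (-4.78 on the log2 scale, adjusted p = 0.0421), a value against 2 libraries at 0 that depends on the prior count. The ratio of LPS 4 h to LPS 30 min was 659.5 (225 to 3202), and the log2 change against PBS was 7.58 ± 0.26 (adjusted p = 3.00e-17).

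Ccl19 was the most abundant of the 10 before LPS, and its rise at 4 h was the smallest of the 9. It stood at 23.1, 22.4 and 22.7 CPM in PBS, 20.2, 18.7 and 19.1 CPM at LPS 15 min, 29.2, 26.2 and 25.7 CPM at LPS 30 min, and 101, 101 and 98.0 CPM at LPS 4 h. The LPS 15 min libraries lay below those of PBS and the LPS 30 min libraries above them, by -0.23 ± 0.06 and 0.25 ± 0.06 on the log2 scale, both inside the fold limit (adjusted p = 1). Tested with no fold limit, both differences passed (adjusted p = 0.00366 and 0.00159), as did 7393 and 7066 of all genes. At 4 h the change was 2.14 ± 0.05 (adjusted p = 3.19e-18).

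The counts of Ccl19 carry an uncertainty that those of the other 9 do not. Of the distinct 31-base stretches in its transcripts, 58.8% also occur in Gm2564, a near-identical copy, and smaller shares in Ccl19-ps3, Gm12407 and Ccl19-ps1. The estimates placed no fragment on Gm2564 or Ccl19-ps3 in any library. Gm12407 held 18 fragments in PBS and 48 at LPS 4 h, and Ccl19-ps1 held 116 and 276, beside 1876 and 4270 for Ccl19. For each of the other 9 genes, at most 0.539% of such stretches occurred in another gene.

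The annotated transcripts of Ccl19 shifted in their shares at 4 h. The coding form Ccl19-201 held 69.4% of the gene's fragments in PBS (65.6% to 72.8% across libraries), 70.5% after 15 min, 72.1% after 30 min and 43.8% after 4 h (42.3% to 45.9%). Ccl19-202, a processed transcript with no coding sequence in the annotation, held 24.6% in PBS (21.9% to 27.6%) and 43.8% at LPS 4 h (42.2% to 46.5%). Ccl19-203, a shorter coding form, held 5.99% in PBS and 12.4% at 4 h. The libraries of LPS 4 h did not overlap those of any other group for any of the 3 forms. In fragments, Ccl19-201 went from 1302 to 1871 between PBS and 4 h, and Ccl19-202 from 462 to 1868. These are estimates by Salmon for transcripts that overlap, and the differences were not tested.

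The forms of Ccl2 differed in share between 30 min and 4 h, a difference that was not tested. The transcript Ccl2-202, which retains an intron, held 22.4% of the Ccl2 fragments at LPS 30 min (range 19.6% to 27.7%) but 11.2% after 4 h (range 10.9% to 11.4%), and these libraries did not overlap. At LPS 15 min it held 21.04% (0% to 31.5%), and in PBS 9.48% (0% to 16.8%) on 3.79 estimated fragments, so the earlier groups are too thin to place. Of the Ccl20 fragments at LPS 4 h, 70.5% were placed on Ccl20-202 (64.9% to 76.0%). Ccl3, Ccl4, Ccl7, Ccl8 and Ccl11 have 1 annotated transcript each in these files.

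**Figure D4:**
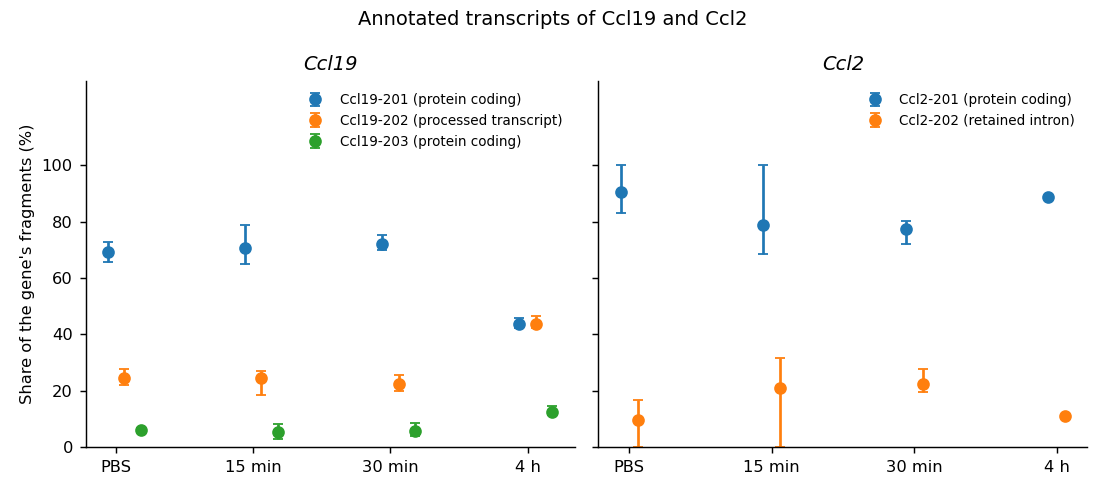
Share of the gene's estimated fragments on each annotated transcript of Ccl19 (left) and Ccl2 (right), as the share over the 3 libraries of a group, with bars from the lowest to the highest library. The retained-intron form of Ccl2 was at 22.4% at LPS 30 min and 11.2% at LPS 4 h, and Ccl19-202 went from 24.6% in PBS to 43.8% at LPS 4 h.

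On chromosome 11 of GRCm38, 8 of the 10 genes lie in 2 clusters. Ccl2, Ccl7, Ccl11, Ccl12 and Ccl8 follow each other on the plus strand over 81.2 kb (chr11:82035571-82116799). Ccl5, Ccl3 and Ccl4 lie within 139 kb (chr11:83525778-83664683). Ccl19 is at chr4:42754525-42756577 on the minus strand and Ccl20 at chr1:83116766-83119167 on the plus strand. Along the first cluster the 4 h log2 change was 10.46 for Ccl2, 8.27 for Ccl7, 7.81 for Ccl11, 6.53 for Ccl12 and 0.43 for Ccl8, in the order of the genes from Ccl2 to Ccl8. This order did not hold at 30 min, when Ccl11 changed by 2.57 and Ccl12 by 4.64.

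Among the 30 annotated protein-coding neighbours in and beside these clusters and beside Ccl19 and Ccl20, 18 were tested, and 8 rose and 3 fell at LPS 4 h, when 33% of all genes were called and 19.1% as higher. Of the 8, 6 were neighbours of the cluster from Ccl5 to Ccl4. They included the chemokines Ccl9 (2.22 CPM in PBS and 74.2 CPM at 4 h) and Ccl6 (2.59 and 6.73 CPM), Taf15, which encodes an RNA-binding protein (115 and 236 CPM), and Wfdc17, Wfdc18 and Wfdc21, genes with a whey acidic protein domain. Wfdc17 stood at 3.86 CPM in PBS and 18.9 CPM at 4 h, Wfdc18 at 0.0125 and 2.51 CPM, and Wfdc21 at 0 and 4.66 CPM. Wfdc18 and Wfdc21 passed the filter on low counts only through their LPS 4 h libraries. They could enter the tested set only as genes high at that time, so their part in the count of 8 carries no weight. The other two that rose were Tmem132e, after the first cluster (4.81 and 19.6 CPM), and Il11ra2, beside Ccl19 (0.225 and 2.23 CPM, adjusted p = 0.0357). Mmp28, a matrix metalloproteinase gene before Ccl5, fell by 2.83 on the log2 scale. Gm12394 and Krtap28-13 also fell, by 1.21 and 2.10. At 30 min Daw1, beside Ccl20, rose by 1.14 ± 0.14 (adjusted p = 0.00146), and at 15 min no tested neighbour was called by edgeR (2 were at an unadjusted p below 0.05).

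**Figure D5:**
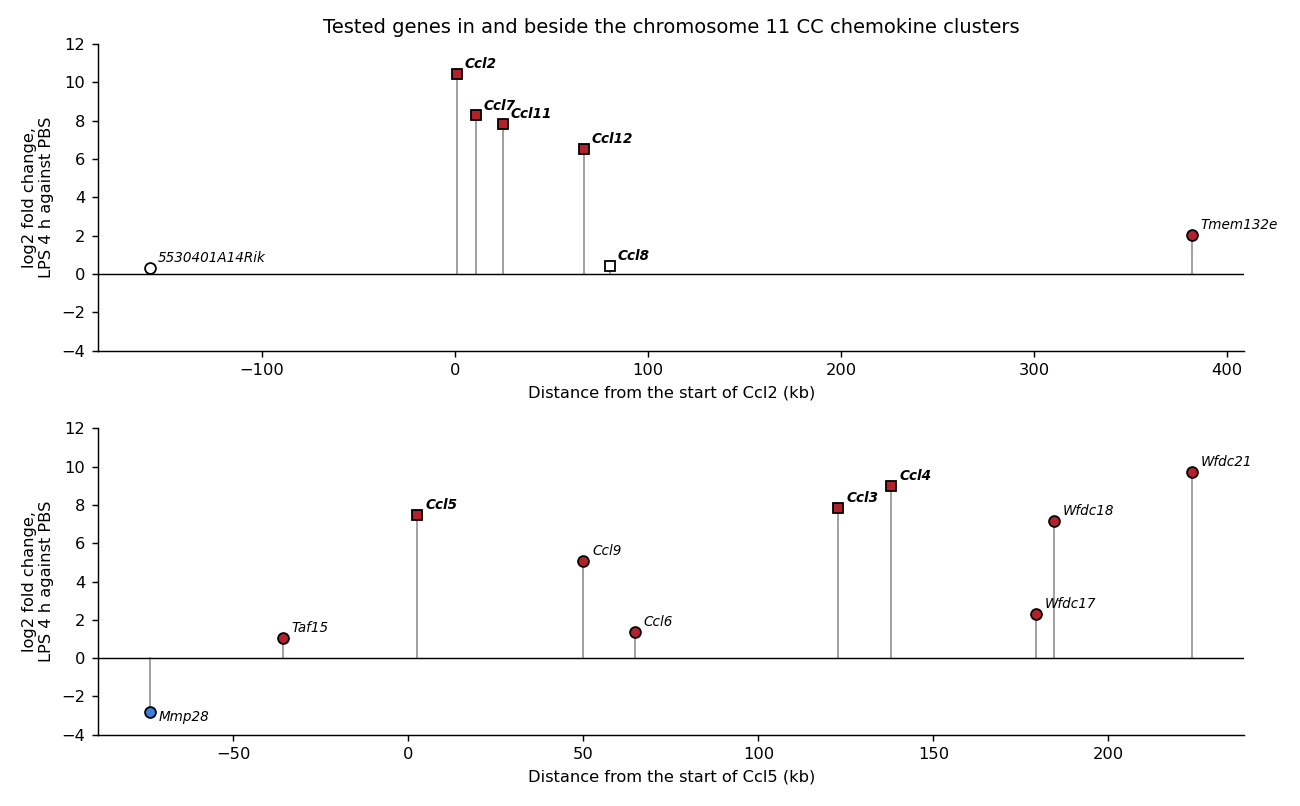
Fitted log2 fold change at LPS 4 h against PBS of tested genes, by the distance of their midpoint from the start of Ccl2 (top) and of Ccl5 (bottom); genes farther away are not drawn. Squares are the CC chemokines described here and circles their neighbours; red was called as higher, blue as lower, and white was not called. Wfdc21 had no count in PBS, so its fitted value depends on the prior count. In the top cluster the values go from 10.46 at Ccl2 to 0.43 at Ccl8.

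Ccl12 and Ccl8 are adjacent genes of the same cluster, and Ccl12 rose at every time while Ccl8 was not called at any. Their promoters, and that of Ccl20, are shown because they are the 3 members with a match to a TATA box (TATAAA) or a kappaB motif among the 5 of 10 members whose start region was matched in the RefSeq table of GRCm38.p6 (Ccl3, Ccl8, Ccl12, Ccl19 and Ccl20). Each line gives the 120 bases before the annotated start on the gene's own strand, with matches in capitals. The stretches are chr11:82101725-82101844 for Ccl12, chr11:82115065-82115184 for Ccl8 and chr1:83116646-83116765 for Ccl20, all on the plus strand.
Ccl12: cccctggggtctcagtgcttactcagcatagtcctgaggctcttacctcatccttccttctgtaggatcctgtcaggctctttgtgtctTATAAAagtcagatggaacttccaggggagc
Ccl8: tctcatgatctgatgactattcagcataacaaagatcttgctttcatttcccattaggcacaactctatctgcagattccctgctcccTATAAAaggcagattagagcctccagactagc
Ccl20: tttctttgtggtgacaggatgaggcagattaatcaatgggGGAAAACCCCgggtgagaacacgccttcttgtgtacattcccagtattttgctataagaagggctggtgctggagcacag

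Over windows from 250 bases before to 50 bases after the start, searched on both strands, TATAAA occurred in Ccl8 and Ccl12, 32 to 27 and 31 to 26 bases before the start. It occurred in 13.6% of the 32841 promoters of that length. The kappaB motif, the site bound by the NF-kappaB family, matched 80 to 71 bases before the start of Ccl20 on the opposite strand, and matched 8.46% of all promoters. The interferon response core GAAANNGAAA matched in Ccl19, 208 to 199 bases before the RefSeq start, and in 3.44% of all promoters. That match lies within the Ccl19 gene span given above, so by the annotation used for the counts it is inside the gene. The AP-1 motif TGANTCA was not in these 5 windows, and was in 7.81% of all. A match is a description of letters, the matches do not overlap each other, and no binding was measured.

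The 3′ untranslated regions of the 10 genes are 165 to 644 bases long, against a median of 1062 over all genes. The pentamer ATTTA, the core of AU-rich elements that mark messages for rapid decay, was found in 7 of the 10, all but Ccl5, Ccl8 and Ccl19, a share close to the 68.1% of 15433 genes. Per length the 10 genes held a median of 5.61 per kb, against 1.29 over all genes, and the same 7 were at or above 3 per kb, against 20.6% of all genes. In the shorter of these regions 1 copy reaches that density, as in Ccl2 (1 copy in 275 bases), so this contrast depends on length. Ccl12 had the highest density, 5 copies in 167 bases. None of the 10 held the longer nonamer found in 7.92% of genes.

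Of 13 CC chemokine receptor genes, typical and atypical, 9 were tested. At LPS 15 min 1 rose and 1 fell, at LPS 30 min 1 rose and 1 fell, and at LPS 4 h 4 rose and 1 fell. These are 22.2%, 22.2% and 55.6% of those tested, beside 4.25%, 4.62% and 33% of all genes. The largest change at 30 min and at 4 h was that of Ackr1, an atypical receptor of venular endothelium that carries inflammatory chemokines without signalling. Ackr1 stood at 10.1, 9.61 and 9.19 CPM in PBS, 19.1, 19.3 and 20.7 CPM at LPS 15 min, 151, 147 and 149.7 CPM at LPS 30 min, and 1579, 1545 and 1577 CPM at LPS 4 h, with no overlap. Its log2 change was 1.03 ± 0.05 (adjusted p = 3.33e-08), 3.95 ± 0.04 (adjusted p = 6.17e-27) and 7.34 ± 0.04 (adjusted p = 5.56e-33) at the 3 times.

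Ccr2, the receptor that Ccl2, Ccl7 and Ccl12 bind, stood at 3.03, 2.87 and 3.05 CPM in PBS, 1.52, 1.06 and 1.21 CPM at LPS 15 min, and 3.77, 5.19 and 2.66 CPM at LPS 4 h. It was not called at any time (adjusted p = 0.0597, 0.0818 and 0.923). The 15 min change of -1.23 ± 0.26 passed in a fit on the 2 groups alone (adjusted p = 0.0297), and when LPS 15 min library 1 (adjusted p = 0.0481), LPS 30 min library 1 (0.0483), or LPS 4 h library 2 or 3 (0.0464 and 0.0396) was left out. The 30 min change passed without LPS 30 min library 1 (-1.44, adjusted p = 0.0273) and with library size alone as the scale (-1.35, adjusted p = 0.0233). With no fold limit both changes passed. Ccr1 rose at 4 h, from 1.09, 1.18 and 1.33 CPM to 8.86, 9.38 and 9.28 CPM (2.93 ± 0.22, adjusted p = 7.36e-10).

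Ccr7, the receptor of Ccl19, held 12, 31 and 18 counts in PBS, 6, 2 and 4 at LPS 15 min, 8, 1 and 2 at LPS 30 min, and 45, 80 and 64 at LPS 4 h. It fell at 15 min (-2.25 ± 0.54, adjusted p = 0.0326) and at 30 min (-2.16 ± 0.55, adjusted p = 0.0481) and rose at 4 h (2.58 ± 0.41, adjusted p = 5.81e-05). Both early calls ended with DESeq2 (adjusted p = 0.0527 and 0.0995), with the library number as a block (0.0593 and 0.0853), with limma on the deposited values plus 1 (0.314 and 0.169) and with limma after adding 10 (1 for both). The 30 min call also ended in a fit on the 2 groups alone (0.112), and each ended without some single libraries (7 of 12 at 15 min and 8 of 12 at 30 min), with adjusted p of up to 0.192 and 0.258, both without PBS library 2. Ccrl2, a chemokine-like receptor that does not signal, rose at 4 h from 27.0, 24.9 and 27.2 CPM to 435, 453 and 458 CPM (4.09 ± 0.05). Ccr10, a receptor of Ccl27a and Ccl28, fell at 4 h (-1.79 ± 0.33, adjusted p = 0.000654). The receptors of Ccl11, Ccl8 and Ccl20 were too low to test. Ccr3 had 1 count in the 12 libraries, Ccr8 had at most 3 in a library, and Ccr6 had 3 counts in 1 PBS library and 0 in all the others.

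Of 11 further CC chemokine ligand genes, 8 were tested. None was called at LPS 15 min or LPS 30 min by edgeR with the fold limit or by DESeq2, and at an unadjusted p below 0.05 Ccl27a alone was at 15 min and none at 30 min. With no fold limit 2 were called at 15 min and 1 at 30 min. At 4 h 5 rose and none fell, beside 33% of all genes called and 19.1% as higher. Of the 5, Ccl22 passed the filter on low counts only through its LPS 4 h libraries. Ccl22, a ligand of Ccr4, rose from 0.187, 0.202 and 0.0763 CPM to 9.48, 8.92 and 9.69 CPM (5.85 ± 0.45, adjusted p = 2.27e-10), and Ccl17, which shares that receptor, from 0.150, 0.337 and 0.343 CPM to 5.16, 3.46 and 4.71 CPM (3.97 ± 0.38, adjusted p = 1.97e-08). Ccl9 rose by 5.06 ± 0.11 and Ccl6 by 1.37 ± 0.22 on the log2 scale. Ccl24, an eosinophil attractant like Ccl11, rose by 1.31 ± 0.22 (adjusted p = 0.00136), and this call and that of Ccl6 ended with library size alone as the scale. The Ccl24 call also ended with limma on the deposited values plus 1 or plus 10 (adjusted p = 0.0627 and 0.0974). Ccl27a had the highest level of the 11, 47.1, 45.2 and 47.2 CPM in PBS and 76.4, 73.1 and 77.8 CPM at LPS 15 min, groups that lay apart without passing the test (0.71 ± 0.05, adjusted p = 0.0624). It passed without LPS 30 min library 1 (adjusted p = 0.0342) or LPS 4 h library 1 (0.0480).

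The scale bears on the 4 h values. The mean TMM factor was 1.17 in PBS and 0.717 at LPS 4 h, and with library size alone the median log2 change of all genes at 4 h moved from -0.01 to -0.71. The 9 chemokines were called as higher at 4 h on either scale, and Ccl8 changed sign without passing the test. On the TPM scale the median ratio of LPS 4 h over PBS across the 10 genes was 112, against 213 in CPM and 203 in the deposited values. Folds at 4 h are given here relative to the bulk of genes.

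The summed markers of neutrophils, monocytes and perivascular macrophages were higher at 4 h than in PBS. The monocyte sum was also higher at 15 and 30 min, mostly through Ly6c2. The summed level of 7 neutrophil markers was 2.36 to 2.82 CPM in PBS, 1.02 to 1.58 CPM at LPS 15 min, 3.35 to 5.98 CPM at LPS 30 min and 196 to 200 CPM at LPS 4 h, where all 6 tested markers rose. S100a9, the most abundant of them, stood at 91.7 CPM at 4 h, and Ly6g at 0.297 CPM there and at 0 in PBS and at LPS 15 min. Of the 6 tested, Retnlg, Camp, Ngp and Mmp8 had group means of at most 0.421 CPM before 4 h. They may have passed the filter on low counts only through their LPS 4 h libraries, so their part in the count of 6 is given no weight. The 5 monocyte markers summed to 43.3 to 52.9 CPM in PBS, 67.9 to 73.8 CPM at LPS 15 min, 72.1 to 82.5 CPM at LPS 30 min and 182 to 188 CPM at LPS 4 h, so that every LPS group lay above PBS. Of these, Ly6c2 stood at means of 38.8, 62.8, 71.4 and 83.0 CPM in the 4 groups. It was not called by edgeR at 15 min (adjusted p = 0.215) and rose at 30 min. Ccr2, in the same list, went the other way, with means of 2.98 CPM in PBS, 1.26 CPM at 15 min and 1.31 CPM at 30 min. No monocyte marker other than Ly6c2 was called at 15 or 30 min, and at 4 h 4 of the 5 rose. Of the 4, Chil3 had group means of at most 0.209 CPM before 4 h, so the same limit applies to it. The 5 perivascular macrophage markers summed to 111 to 119 CPM in PBS, 95.4 to 102 CPM at LPS 15 min, 133 to 141 CPM at LPS 30 min and 178 to 183 CPM at LPS 4 h. Lyve1 rose at 30 min and 3 of the 5 at 4 h. The part of these cells in the chemokine levels was not tested.

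Markers of microglia and of T, NK and mast cells were not higher at 4 h. The 6 microglia markers summed to 84.4 to 86.0 CPM in PBS and 43.0 to 47.2 CPM at 4 h, and 4 of them fell. The 6 T or NK cell markers summed to 2.84 to 3.30 CPM in PBS and 1.86 to 3.24 CPM at 4 h, and the 4 mast cell markers to at most 0.839 CPM in PBS and 0.385 CPM at 4 h, when 1 of them was at 0. The astrocyte markers summed to 341 to 372 CPM in PBS and 436 to 472 CPM at 4 h, when 2 rose and 1 fell, those of platelets to 23.3 to 25.1 and 32.1 to 37.7 CPM, and those of B cells to 8.28 to 9.10 and 4.24 to 5.92 CPM. Pericyte markers summed to 3532 to 3603 CPM in PBS and 3294 to 3411 CPM at 4 h, smooth muscle markers to 2468 to 2512 and 2422 to 2476 CPM, and fibroblast markers to 433 to 457 and 299 to 311 CPM. Neuron markers summed to 245 to 255 and 168 to 178 CPM, and oligodendrocyte markers to 322 to 336 and 377 to 392 CPM. The higher oligodendrocyte sum at 4 h came from Mbp (means of 183 and 264 CPM), which was not called. Mog and Mag fell by 1.22 and 1.07 on the log2 scale. The 7 endothelial markers, which check the label of the tissue, summed to 8901 to 9189 CPM in PBS and 6017 to 6076 CPM at 4 h. At 4 h 5 of them fell, and Cdh5 rose from a mean of 485 to 1888 CPM. At LPS 30 min, when 6 chemokines had risen, the microglia sum was 76.0 to 80.4 CPM and the endothelial sum 10100 to 10152 CPM. That endothelial sum was raised by Slc2a1, called as higher (means of 2732.5 CPM in PBS and 5510.5 CPM at 30 min). Cldn5 fell (2360 and 1268 CPM), and no other endothelial marker was called. Pecam1, Cdh5, Flt1 and Tek had lower means than in PBS. Sums also moved at LPS 15 min. Smooth muscle markers then summed to 1587 to 1612 CPM (3 fell) and astrocyte markers to 205 to 227 CPM (2 fell). B cell markers summed to 2.89 to 4.45 CPM (2 fell) and platelet markers to 13.1 to 17.2 CPM (1 fell). Neuron, pericyte and endothelial sums lay above PBS, at 314 to 325, 3758 to 3781 and 9281 to 9349 CPM.

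Genes whose 3 changes against PBS lay nearest to those of a member were sought among 14588 genes whose counts averaged at least 50. They are given by the mean absolute difference of the 3 log2 changes, a description with 3 points that share the PBS libraries. Nearest to Ccl2 were Serpina3f (0.64), Lcn2 (0.67), which encodes a protein that binds bacterial iron carriers, and Cxcl10 (0.83), an attractant of T cells. Nearest to Ccl7 were Cd14 (0.23), the LPS co-receptor, Clec4e (0.31) and Rnd1 (0.40). Nearest to Ccl12 were Plaur (0.20), the urokinase receptor, the antisense gene Gm45774 (0.44) and Tnfaip3 (0.45), an inhibitor of NF-kappaB signalling. Nearest to Ccl5 were Oasl1 (0.33), Adamts4 (0.33) and Rsad2 (0.35), of which Oasl1 and Rsad2 are interferon-stimulated genes. Nearest to Ccl20 were Bpifb1 (0.40) and Ptx3 (0.63), and nearest to Ccl19 were Papss2 (0.05) and Grrp1 (0.07).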

How the data were processed

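RNA of cerebral vessels was measured in 12 libraries made with the SMART-Seq v4 kit, which does not keep strand, and the Nextera XT kit. The authors ran Salmon 1.2.1 on paired-end reads (version per the submitters' processing notes), imported the estimates with tximport and normalized with DESeq2 on GRCm38.p6. The estimated counts deposited per transcript are fragments assigned by Salmon, not normalized. TPM, also deposited, corrects for transcript length and a fixed library total. The gene table deposited by the authors holds a normalized signal, counts divided by DESeq2 factors, and its columns were tied to libraries by the number in each library's own file.

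Transcripts were joined to GENCODE M21, and 0.482% to 0.850% of the fragments of a library did not join. Estimated counts were summed per gene and rounded. Depth was 18.3 to 25.9 M fragments. Low genes were removed by filterByExpr with a minimum count of 10, a minimum total of 15 and a share of 0.7, which left 19150. A quasi-likelihood model with TMM factors was fitted to all 12 libraries in edgeR 4.0.16 (R 4.3.3), and glmTreat tested against a limit of 0.58 on the log2 scale, with Benjamini-Hochberg adjustment over all genes. Standard errors were derived from the log2 change and its quasi-likelihood F. An exact permutation test of 3 against 3 cannot go below p = 0.1, so single values were not tested that way. The fit was tested on simulated data.

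Alternatives were DESeq2 1.42.0 with the same limit, RLE factors, library size only, no filter, no fold limit, limma 3.58.1 on the deposited values plus 1 and plus 10, a block for the library number, a fit on the groups compared alone, and leaving out each library. Named genes were the 10 members, 13 receptors, 11 other ligands, the neighbours, the 3 genes nearest to each member, and marker genes. A receptor that was also listed is not reported here and was left out of the counts of receptors. The members and lists were chosen with earlier results of these data known. Nothing in the labels pairs libraries across groups. Libraries that share a number had deviations from their group means that correlated at -0.0672 to 0.0516 in 18 pairs, none over 0.1. Promoters were taken from RefSeq for GRCm38.p6. Python 3.11.15, pandas 2.3.3, scipy 1.17.1 and matplotlib 3.10.9 were used for tables, intervals and plots.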

Additional observations from a re-analysis of the deposited data

Results flagged for a closer look

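For each time after LPS the effect against PBS was compared with the effect at the time before, which in 1 fit equals the comparison of those times. The effect of LPS differed between 15 and 30 min, as log2 differences, for Ccl7 (3.48), Ccl2 (3.44), Ccl4 (3.27), Ccl12 (2.61), Ccl3 (2.51) and Ccl11 (1.24). It also differed for the receptors Ackr1 (2.92), Ccr1 (1.37) and Ccrl2 (0.77) and the ligand Ccl9 (1.30). Unlike Ackr1, the libraries of Ccr1, Ccrl2 and Ccl9 lay below those of PBS at 15 min (-1.24 ± 0.28, -0.44 ± 0.07 and -0.57 ± 0.17). None of Ccr1, Ccrl2 and Ccl9 was called against PBS at 15 or 30 min.

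Between 30 min and 4 h it differed for Ccl20 (9.20), Ccl5 (7.64), Ccl2 (5.65), Ccl4 (5.39), Ccl3 (5.28), Ccl11 (5.24), Ccl7 (3.81), Ccl12 (1.89) and Ccl19 (1.89). It differed in the same interval for the receptors Ccr7 (4.73), Ccrl2 (3.76), Ackr1 (3.39), Ccr1 (2.80) and Ccr2 (1.56), and for Ccl22 (5.48), Ccl9 (4.33), Ccl17 (2.92) and Ccl24 (1.18). All of these were higher at the later time. For Ccr2 the change against PBS was -1.19 ± 0.27 at 30 min and 0.38 ± 0.25 at 4 h, neither of them called. The value of Ccl20 rests on 3 counts at LPS 30 min and ranged from 8.65 to 12.35 as each library was left out.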

How the results depend on the processing

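The log2 changes of the 10 genes in 5 comparisons, 50 in all, were recomputed under 21 alternatives, 12 of which left out a library. None of the 50 that was called changed sign, and of 1045 recomputed values 14 lost a call and 5 gained one. Among the members called at 15 min (3), DESeq2, limma after adding 1 or 10, and the fit on the groups compared left 1 each, and no fold limit gave 5. The other 4 counts of members stayed within 1.5 times. For receptors at 15 min (2), DESeq2, limma with either addition and the replicate block, a fit with the library number as a block, gave 1 each and no fold limit 5. At 30 min (2) these gave 1 each, as did the fit on the groups compared, and no fold limit gave 6. For other ligands no fold limit gave 2 at 15 min and 1 at 30 min, against 0, and the fit on the groups compared gave 1 at 15 min. The replicate block changed no call of a member. Ccl27a at 4 h changed sign to -0.68 with library size only.

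Leaving out 1 library gave 2 to 3 members at 15 min, 6 to 7 at 30 min and 9 at 4 h, 1 to 3 receptors at 15 min and at 30 min, 0 to 1 other ligands at 15 min, and 8 to 11 neighbours at 4 h. Over all genes, no fold limit raised the counts called to 7393 (15 min), 7066 (30 min) and 13124 (4 h), limma on the deposited values plus 1 lowered the first 2 to 407 and 541, and library size only gave 10523 at 4 h. On deposited values and TPM the median ratio of 4 h over PBS moved from 213 to 203 and 112. The cause was not tested. PBS levels of 9 of the genes rest on 12 to 74 counts, which limits their folds.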
